A study of Mus musculus with 27 samples.

Results

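Gene expression in the colonic epithelium of 3 male C57BL/6 mice given 0.3 μg/kg TCDD was compared with that of 3 mice given sesame oil vehicle, taken by their dose labels from the 27 mice of the series. TCDD is a persistent dioxin and a strong ligand of the aryl hydrocarbon receptor (AhR). All 6 mice were gavaged every 4 days, 7 times in all, starting at 28 days of age, and tissue was collected at 56 days of age. Epithelium was scraped from the colon, so that a library can hold other cells of the mucosa and wall, and each library is 1 mouse. The doses of 0.01, 0.03 and 0.1 μg/kg (3 mice each) and of 1 μg/kg (3 mice), treated in the same way, served as further references. The comparison asks what the colon shows at the lowest dose at which counts of Cyp1a1, the usual mark of AhR activation, stood above those of the vehicle mice.

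Ligand-bound AhR leaves its HSP90 and p23 chaperones, pairs with ARNT and binds the dioxin response element, whose core is GCGTG. Its best known targets encode the enzymes Cyp1a1, Cyp1a2 and Cyp1b1 and its own repressors Ahrr and Tiparp. The circadian clock, also treated below, is a loop in which BMAL1 (Arntl) with CLOCK or NPAS2 drives genes through E-boxes (CACGTG), among them the PER and CRY proteins that shut it off, the REV-ERB repressors Nr1d1 and Nr1d2 that silence Arntl, and the output factors Dbp, Tef and Hlf, which Nfil3 opposes at shared sites. AhR and ARNT belong to the same PAS protein family as CLOCK, NPAS2 and BMAL1.

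The 6 libraries held 9416898 to 10423536 gene counts in the vehicle mice and 11888112 to 13641950 at 0.3 μg/kg, so that the treated libraries were deeper. All belonged to the first set of index barcodes, as did the 9 mice at the 3 lower doses. The markers of colonic epithelium summed to 15570 to 15660 CPM (the counts of a gene scaled to a library of fixed size, with edgeR's TMM correction) in the vehicle mice and to 15720 to 16580 at 0.3 μg/kg, and the 12 of them were all tested. A score of 9 posterior Hox genes, which marks the position along the colon, was 3.53, 2.90 and 2.95 (mean log2 CPM) in the vehicle mice and 2.78, 2.90 and 3.48 at 0.3 μg/kg, so that 1 mouse of each group stood above the others. In the third mouse at 0.01 μg/kg, which is in neither group but shares the fit, clock genes stood apart (Dbp at 60.0 CPM against 2.74 and 2.53 in the other 2 mice of that dose), and results that turn on it are given with and without it.

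At 0.3 μg/kg no gene of the 16496 tested passed the threshold (adjusted p under 0.05 and a fold of at least 1.5, edgeR's quasi-likelihood test over all 27 libraries, with the Benjamini-Hochberg method), 0% of those tested. The smallest adjusted p was 0.937, and DESeq2 and limma voom also called 0 genes. At an unadjusted p under 0.05 there were 385 genes higher (2.33%) and 471 lower (2.86%), 5.19% together. All 3 treated mice lay above all 3 vehicle mice for 1010 genes (6.12%) and below them for 1028 (6.23%), and these shares are the background for the counts below. The median log2 fold change over all genes was -0.003, and the median SE was 0.17.

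Among the AhR target enzymes Cyp1a1 stood apart. Cyp1a1 (ENSMUSG00000032315, chromosome 9, 57687928 to 57703824, GRCm38) had 1, 0 and 1 counts in the vehicle mice and 5, 6 and 7 counts at 0.3 μg/kg. The groups do not overlap, and none of the 9 mice at 0.01 to 0.1 μg/kg had more than 2 counts. Pooled over mice and scaled by library size, 18 counts against 2 give a ratio of 7.10 to vehicle (95% interval 1.70 to 63.1, exact binomial, counting error only), and 18 against the 5 counts of the 9 lower-dose mice give 9.80 (3.51 to 33.8). These are a description without a test, since the dose was singled out for its Cyp1a1 counts. At about 0.5 CPM the level was low: 39 to 74 counts followed at 1 μg/kg, and 23969 to 29287 at 30 μg/kg.

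The promoter of Cyp1a1 is shown because it holds the core letters of the element that AhR is known to bind. This and the promoters below run from 250 bases before to 50 bases after the RefSeq start site (GRCm38.p6), 5′ to 3′ on the gene's strand, with each GCGTG and each CACGTG in capitals, so that CACGC is GCGTG on the other strand. Of 32851 such promoters 32.4% hold GCGTG on either strand and 7.15% hold CACGTG, and the matches do not overlap each other in those shown. A match is a string of letters, not a shown binding site. Cyp1a1 (chr9:57697363-57697662, plus strand) holds 1 GCGTG, and its RefSeq start lies within the gene interval given above.
Cyp1a1: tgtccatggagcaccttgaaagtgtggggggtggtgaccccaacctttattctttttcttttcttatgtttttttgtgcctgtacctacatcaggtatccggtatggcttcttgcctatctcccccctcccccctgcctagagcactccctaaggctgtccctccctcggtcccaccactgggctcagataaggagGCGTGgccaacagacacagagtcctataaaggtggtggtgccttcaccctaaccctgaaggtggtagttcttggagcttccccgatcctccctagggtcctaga

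The other AhR genes did not follow Cyp1a1. Of the 12 target enzymes 9 had enough counts to be tested, and Cyp1a1 was the single one whose groups did not overlap. Cyp1a2, a second P450 of the family, had 0 counts in all 6 mice. Cyp1b1 had 2, 1 and 1 counts in the vehicle mice and 2, 11 and 1 at 0.3 μg/kg, so that its higher mean came from 1 mouse. Aldh3a1 and Gsta2 had at most 2 counts in any of the 6 mice. Nqo1, the quinone reductase, was at 52.2 ± 11.3 CPM in vehicle and 48.8 ± 7.97 at 0.3 μg/kg (SD, n = 3), a log2 fold change of -0.10 (SE 0.23). Ugt1a6a (0.18), Ugt1a6b (-0.01), Cyp2s1 (-0.07), Gsta1 (0.09), Ugdh (-0.01) and Xdh (-0.04) had log2 fold changes within 1 SE of 0, and for the Ugt1a6 and Gsta copies the reads of near-identical genes may be split.

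The feedback repressors stood at or below vehicle. Ahrr, which competes with AhR for ARNT, had 17, 14 and 22 counts in the vehicle mice and 17, 29 and 19 at 0.3 μg/kg, a log2 fold change of -0.05 (SE 0.30). Tiparp, which marks AhR for degradation, was at 32.96, 24.98 and 24.05 CPM in the vehicle mice and at 18.7, 22.4 and 21.1 CPM at 0.3 μg/kg. All 3 treated mice were below all 3 vehicle mice, opposite to the direction known for an AhR target, but the difference did not pass the test (log2 fold change -0.40, SE 0.16, adjusted p = 0.937 in edgeR), and without the first vehicle mouse it was -0.23. The receptor and its partners (Ahr, Arnt, Arnt2, Ptges3, Hsp90aa1, Hsp90ab1) had log2 fold changes between -0.12 and 0.09, and in each of the 6 the groups overlapped. Ahr itself was at 26.2 ± 2.03 CPM in vehicle and 24.9 ± 0.81 at 0.3 μg/kg (SD, n = 3).

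**Figure D1:**
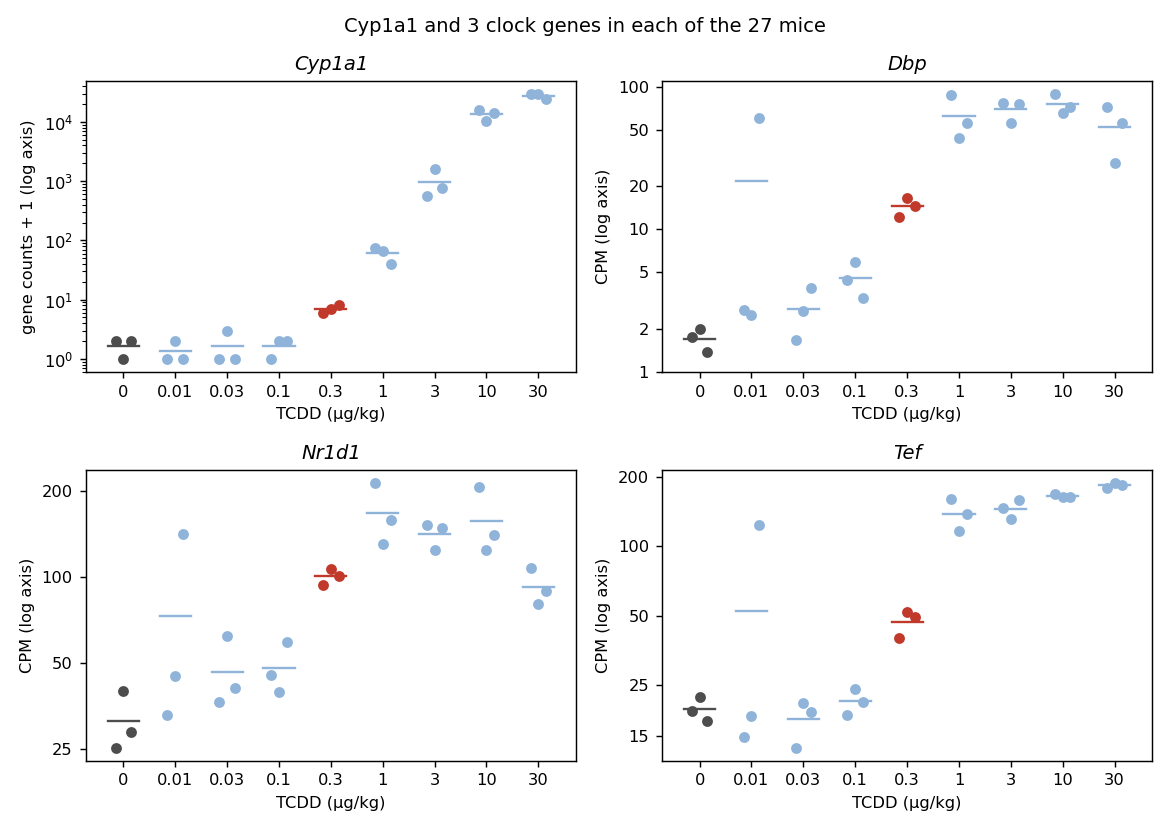
Counts of Cyp1a1 (plus 1, log axis) and CPM of Dbp, Nr1d1 and Tef (log axes) in each mouse (points) against TCDD dose, with vehicle in grey, 0.3 μg/kg in red and the other doses in blue; lines are means of 3 mice. The red points lie above every vehicle mouse in all 4 panels, and the mouse far above its group at 0.01 μg/kg is the third mouse of that dose.

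Many clock genes did not overlap between the 2 groups. Of the 19 tested, 8 had all treated mice above all vehicle mice (Dbp, Nr1d1, Tef, Nr1d2, Cry2, Per1, Hlf and Bhlhe41) and 5 had them below (among them Nfil3, Cry1, Arntl and Npas2), 13 in all beside 12.4% of all genes. At an unadjusted p under 0.05 there were 5 higher and 3 lower. None passed the threshold in the fit of all 27 libraries. The median log2 fold change of the list, 0.48, mixes genes of opposite phase. The list was written with earlier results of these data known, so its choice is not independent of them.

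Dbp, a D-box activator that is a direct output of the clock (ENSMUSG00000059824, chromosome 7, 45705088 to 45710203), had 18, 19 and 14 counts in the vehicle mice and 146, 207 and 198 at 0.3 μg/kg. This is 1.72 ± 0.32 CPM against 14.5 ± 2.24 (SD, n = 3), a log2 fold change of 3.08 (SE 0.87, adjusted p = 0.937 in edgeR). Every treated mouse lay above every mouse of the vehicle group and of the doses of 0.03 and 0.1 μg/kg. Nr1d1, the REV-ERBα repressor (ENSMUSG00000020889, chromosome 11, 98767932 to 98775333), had 257, 378 and 292 counts against 1121, 1330 and 1364, or 31.3 ± 7.62 CPM against 100.8 ± 6.69, with a log2 fold change of 1.69 (SE 0.36, adjusted p = 0.937 in edgeR). The spread within each group was far smaller than the distance between them.

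Tef, a second D-box activator (ENSMUSG00000022389, chromosome 15, 81802421 to 81826863), was at 19.4, 22.1 and 17.6 CPM in the vehicle mice and at 40.1, 51.9 and 49.6 CPM at 0.3 μg/kg, with a log2 fold change of 1.26 (SE 0.46). Nr1d2, the REV-ERBβ partner of Nr1d1 (ENSMUSG00000021775, chromosome 14, 18204054 to 18239127), was at 36.0, 48.7 and 45.1 CPM against 76.1, 89.1 and 69.6 CPM, a log2 fold change of 0.86 (SE 0.25). Hlf, the third factor of this kind, and Bhlhe41, an E-box repressor, were also above vehicle in every mouse but at 14 counts or fewer.

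Whether these 4 genes passed depended on the libraries in the fit, since the spread is estimated over all groups, the third mouse at 0.01 μg/kg included. Without that mouse, a choice made after its values were seen, 4 genes passed (of 16843, 0.0237%), all higher and all clock genes: Tef (adjusted p = 0.000243 in edgeR), Dbp (0.000384), Nr1d1 (0.00132) and Nr1d2 (0.0025). With the 6 mice of the comparison alone, 3 genes passed (of 15005, 0.02%), namely Dbp (0.00134), Nr1d1 (0.00833) and Tef (0.0167). With no filter on low counts Nr1d1 alone passed (of 30487, 0.00328%). Across the 14 alternatives run, the adjusted p ran from 0.000384 to 1 for Dbp, from 0.00132 to 1 for Nr1d1, from 0.000243 to 1 for Tef and from 0.0025 to 1 for Nr1d2, while the log2 fold change of Dbp stayed between 2.94 and 3.20 and that of Nr1d1 between 1.57 and 1.90. The calls moved with the libraries in the fit and with the filter.

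The promoters of the 4 genes that passed without that mouse are shown for the motifs of both pathways. Dbp (chr7:45704997-45705296, plus strand) holds 2 GCGTG, and Nr1d1 (chr11:98775328-98775627, minus strand) and Nr1d2 (chr14:18239057-18239356, minus strand) hold 1 each. Tef has 2 listed promoters, and the one shown (chr15:81811164-81811463, plus strand) holds 1 of each motif, while the other holds 1 CACGTG and 0 GCGTG. No CACGTG lies in the windows of the other 3 genes, which says nothing about sites elsewhere.
Dbp: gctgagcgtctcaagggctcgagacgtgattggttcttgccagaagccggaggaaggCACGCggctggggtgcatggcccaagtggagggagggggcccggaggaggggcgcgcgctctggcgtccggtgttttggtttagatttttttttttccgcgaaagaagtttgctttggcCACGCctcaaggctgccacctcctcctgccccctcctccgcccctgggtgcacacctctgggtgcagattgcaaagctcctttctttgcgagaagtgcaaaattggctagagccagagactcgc
Nr1d1: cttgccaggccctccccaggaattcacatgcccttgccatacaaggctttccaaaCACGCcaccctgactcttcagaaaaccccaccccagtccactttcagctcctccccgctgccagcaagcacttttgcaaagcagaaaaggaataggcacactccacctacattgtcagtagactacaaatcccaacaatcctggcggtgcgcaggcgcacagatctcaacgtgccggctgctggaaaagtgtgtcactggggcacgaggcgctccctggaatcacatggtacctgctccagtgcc
Nr1d2: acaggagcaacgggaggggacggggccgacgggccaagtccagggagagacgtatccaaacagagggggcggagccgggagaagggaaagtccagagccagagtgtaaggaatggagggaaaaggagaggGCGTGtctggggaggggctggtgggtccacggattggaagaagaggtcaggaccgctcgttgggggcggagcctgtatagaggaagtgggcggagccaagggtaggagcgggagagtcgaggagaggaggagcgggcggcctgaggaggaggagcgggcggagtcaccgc
Tef: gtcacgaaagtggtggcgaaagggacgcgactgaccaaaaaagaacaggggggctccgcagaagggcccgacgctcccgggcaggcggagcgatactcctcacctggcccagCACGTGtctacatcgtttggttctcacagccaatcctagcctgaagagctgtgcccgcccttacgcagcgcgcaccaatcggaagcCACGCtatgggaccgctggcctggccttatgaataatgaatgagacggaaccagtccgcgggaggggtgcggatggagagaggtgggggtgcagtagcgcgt

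The genes of the opposite phase lay below vehicle. Nfil3, the repressor at D-boxes, had 126, 115 and 133 counts in the vehicle mice and 83, 50 and 72 at 0.3 μg/kg, or 12.5 ± 0.48 CPM against 5.44 ± 1.46 (SD, n = 3), with a log2 fold change of -1.20 (SE 0.39, adjusted p = 0.937 in edgeR). Arntl, which encodes BMAL1, was at 79.1, 60.8 and 54.7 CPM against 42.7, 37.0 and 39.3 CPM (log2 fold change -0.71, SE 0.38). Npas2 was at 83.7 ± 7.42 against 57.7 ± 4.06 CPM, and Cry1, a repressor of CLOCK and BMAL1, at 41.5 ± 3.80 against 24.97 ± 3.60 CPM. In these 4 genes the groups do not overlap, and none passed under any of the alternatives, the smallest adjusted p being 0.266 for Nfil3.

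Among the PER and CRY repressors the pattern was uneven. Cry2 was at 34.2, 29.6 and 30.9 CPM in the vehicle mice and at 42.2, 44.4 and 46.0 CPM at 0.3 μg/kg (log2 fold change 0.48, SE 0.16, adjusted p = 0.937 in edgeR), opposite in direction to Cry1. Per1 was above vehicle in every treated mouse by a small margin (42.7 ± 3.82 against 54.9 ± 6.50 CPM). Per2, at 17.1, 11.8 and 17.3 CPM against 14.3, 26.6 and 39.5, overlapped because the first treated mouse was at the vehicle level. In Per3, Ciart and Usp2 the first treated mouse was also the lowest of the 3, and the groups overlapped as well. Clock (-0.14) and Bhlhe40 (0.19) had log2 fold changes near 1 SE.

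**Figure D2:**
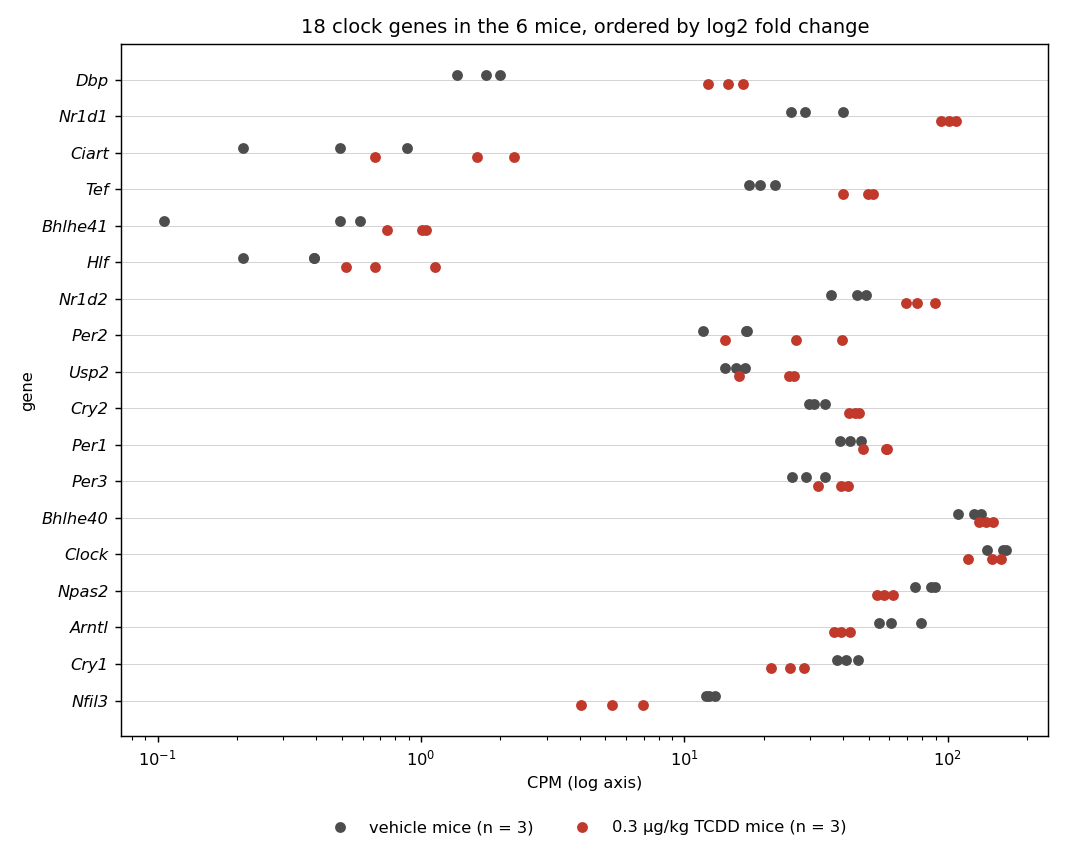
CPM (log axis) of 18 clock genes in the 3 vehicle mice (grey) and the 3 mice at 0.3 μg/kg TCDD (red), with genes ordered by log2 fold change. Dbp at the top is farthest apart on the higher side and Nfil3 at the bottom on the lower side, and the 2 colours do not overlap for 8 genes on the higher and 4 on the lower side.

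Against dose, the 0.3 μg/kg mice lay between those at 0.03 and 0.1 μg/kg and those at 1 μg/kg for Dbp and Tef. The dose of 0.01 μg/kg does not follow this order, since the third mouse of that dose, at 60.0 CPM of Dbp and 124.0 CPM of Tef, lay in the range of the mice at 1 μg/kg and raised the means there to 21.8 and 52.4 CPM. Mean Dbp was 1.72 CPM in vehicle, 2.75 at 0.03, 4.56 at 0.1, 14.5 at 0.3 and 62.4 at 1 μg/kg, and the ranges of 0.3 μg/kg (12.2 to 16.7) and of its neighbours (3.33 to 5.94 and 43.9 to 87.99) do not overlap. Tef went from 21.3 CPM at 0.1 to 47.2 at 0.3 and 138.8 at 1 μg/kg, again without overlap. Arntl went from 53.0 to 39.7 and 17.3 CPM over the same doses. Nfil3 at 0.3 μg/kg (4.04 to 6.96 CPM) overlapped the mice at 0.03 (6.34 to 6.63) and 0.1 μg/kg (5.33 to 9.52). Of the mice at 1 μg/kg 2 belong to the second set of index barcodes, while all mice up to 0.3 μg/kg share the first. The 1 mouse at 1 μg/kg in the first set had 88.0 CPM of Dbp, 160.9 of Tef and 18.1 of Arntl, also outside the range of the 0.3 μg/kg mice. The labels give no collection time for a mouse, and the methods place collection in the first hours of the light phase. Whether hour of collection differed between the groups was not tested.

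A reference without the vehicle mice gave the same directions for most of these genes. Against the mean of the 9 mice at 0.01 to 0.1 μg/kg, which shares the treated mice with the comparison above, no gene of 16496 passed (0%, edgeR), with 855 at an unadjusted p under 0.05 (5.18%) and 0 by DESeq2 and by limma voom. Without the third mouse at 0.01 μg/kg, 5 passed (of 16843, 0.0297%): Tef (log2 fold change 1.35, adjusted p = 6.5e-07 in edgeR), Dbp (2.18, 0.000164), Nr1d2 (0.73, 0.00106), Nr1d1 (1.18, 0.00393) and ENSMUSG00000085214, for which the tables give no symbol (0.59, 0.0334). Leaving out the third mouse at 0.3 μg/kg instead, 1 gene passed, Dock2, a regulator of leukocyte migration, at a log2 fold change of 1.18. Against 0.1 μg/kg alone no gene passed (0%, 808 at an unadjusted p under 0.05, and 0 by DESeq2 and by limma voom), and without the third mouse at 0.01 μg/kg Tef did (0.00594%, log2 fold change 1.15, adjusted p = 0.00107 in edgeR). Nfil3, Cry1 and Arntl had log2 fold changes of -0.49, -0.45 and -0.42 against the 9 lower-dose mice.

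From 0.3 to 1 μg/kg a single gene passed (0.00606%), Cyp1a1, with 5 to 7 against 39 to 74 counts, which stays a description because its counts singled out the dose. The call was lost in 5 of the 6 fits that leave out 1 mouse and with limma voom, while DESeq2 called 7 genes. Without the third mouse at 0.01 μg/kg 9 genes passed, among them Tef (1.56), Per3 (1.59), Ciart (2.63), Dbp (2.11), Nr1d2 (0.80) and Cipc (0.74), all higher at 1 μg/kg, and Nfil3, lower (-1.98). Here the values are differences of 1 against 0.3 μg/kg on the log2 scale, and they share the treated mice with the comparisons above.

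Outside the clock, the genes with the smallest unadjusted p among those with non-overlapping groups, a fold of at least 1.5 and at least 1 CPM were named. On the higher side 140 genes met these conditions and on the lower side 135, of which 15 and 61 are models without a given name, and none passed the test (adjusted p = 0.937 for each gene named, edgeR). Zcwpw1, a reader of methylated histone H3, had 16, 10 and 5 counts in the vehicle mice and 26, 31 and 37 at 0.3 μg/kg (log2 fold change 1.24, SE 0.30). Cdh5, the cadherin of endothelial junctions, had 9, 13 and 5 against 26, 45 and 22 counts (1.43, SE 0.41). Gimap1 (0.88) and Ms4a6b (1.71), both expressed in leukocytes, the cyclophilin Ppic (1.00), the JNK scaffold Mapk8ip2 (1.24) and the adhesion receptor Adgrd1 (1.15, or 0.63 without the first treated mouse) completed the higher side with Nr1d1, Dbp and Nr1d2. All 7 that are not clock genes were low, at 55 counts or fewer in every mouse.

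On the lower side, Dll4, a Notch ligand, had 153, 232 and 242 counts in the vehicle mice and 167, 147 and 171 in the deeper libraries at 0.3 μg/kg, or 21.1 ± 5.24 against 12.8 ± 1.08 CPM (log2 fold change -0.72, SE 0.17, adjusted p = 0.937 in edgeR). Socs3, the inhibitor of JAK-STAT signalling that cytokines induce, was at 17.4, 20.2 and 14.4 against 10.6, 6.78 and 6.44 CPM (-1.13, SE 0.30). Klf10, a TGF-β-induced repressor, was at 81.3 ± 17.3 against 50.8 ± 5.23 CPM (SD, n = 3), and Tifa, an adaptor to TRAF proteins upstream of NF-κB, at 53.6 ± 4.16 against 32.9 ± 5.51 CPM. Tnf, the inflammatory cytokine, had 53, 34 and 14 counts in the vehicle mice and 13, 11 and 10 at 0.3 μg/kg, so that the vehicle mice were spread widely. Trim72 (-0.88), Eaf2 (-0.99), Hist1h4i (-0.97, one of many near-identical histone genes), Zfp354a (-1.07, or -0.65 without the second vehicle mouse) and Slc7a15 (-1.60, or -0.90 without the first vehicle mouse) made up the rest.

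For most of these the distance was smaller against the 9 lower-dose mice. Dll4 was at -0.33, Socs3 at -0.30, Klf10 at -0.27, Tifa at -0.16, Tnf at -0.69 and Trim72 at -0.40 on that log2 scale, and Cdh5 at 0.23 and Zcwpw1 at 0.56. Ms4a6b (1.37) and Ppic (0.73) kept a larger part. No difference between the 2 references was tested.

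**Figure D3:**
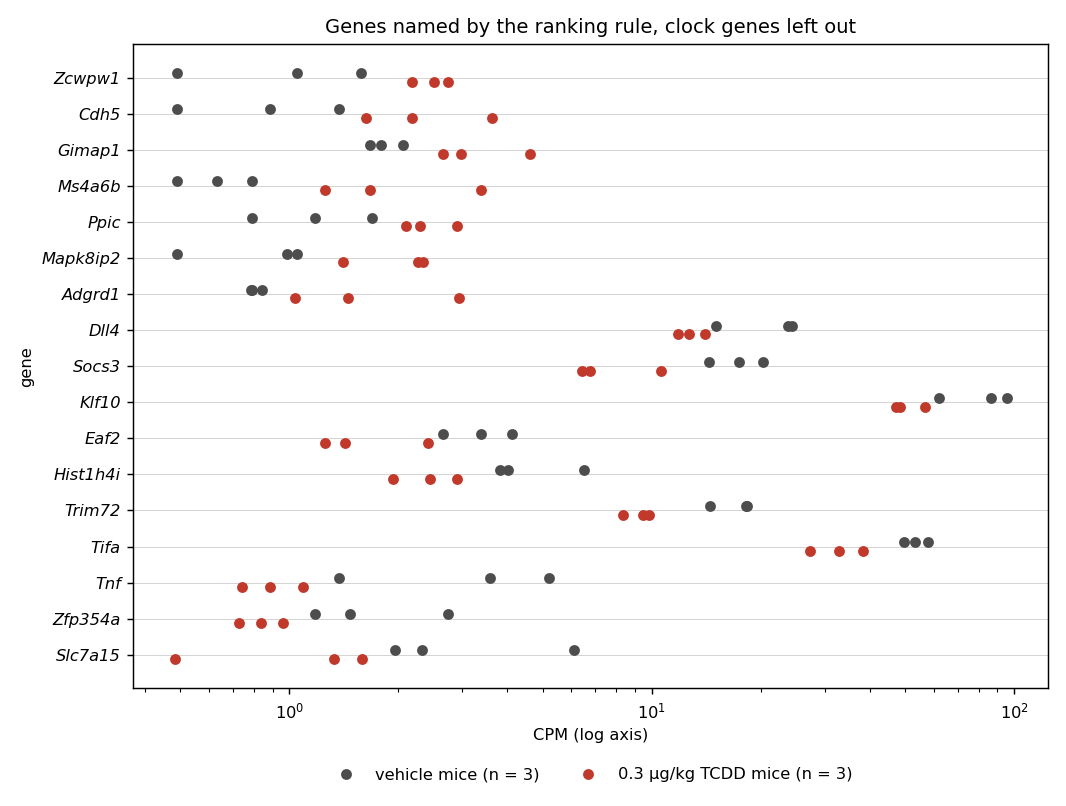
CPM (log axis) in the 3 vehicle mice (grey) and the 3 mice at 0.3 μg/kg TCDD (red) of the 17 genes that the ranking named outside the clock, 7 higher above and 10 lower below. The groups do not overlap in any row, which the ranking itself required.

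There were 9 genes with at most 1 count in every vehicle mouse and at least 4 in every mouse at 0.3 μg/kg, and 0 genes the reverse, beside the greater depth of the treated libraries. Among them were Cyp1a1, Apod (1, 1 and 1 against 6, 4 and 4 counts), Snap91, Gpc3, Ripor3, Snora62, Gm26347 and Gm38293. In the 9 lower-dose mice Cyp1a1 reached at most 2 counts, and the other 8 genes reached 6 to 15 in at least 1 mouse, while the low counts of Cyp1a1 at those doses follow from how the dose was singled out.

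Markers of the intestinal wall had higher values at 0.3 μg/kg, although none passed the test. All 9 smooth muscle genes had positive log2 fold changes with a median of 1.43, beside 8132 of 16496 genes and a median of -0.003, and 5 of the 9 did not overlap between groups (Acta2, Tagln, Actg2, Myl9 and Acta1). The summed level was 97.6, 64.4 and 53.8 CPM in the vehicle mice and 347.5, 152.2 and 102.3 CPM at 0.3 μg/kg, highest in the first treated mouse, without which the median was 0.78. Myh11, smooth muscle myosin, had 432, 257 and 223 counts in the vehicle mice and 1941, 829 and 563 at 0.3 μg/kg. Its groups overlapped in CPM, as the treated libraries were deeper. At an unadjusted p under 0.05 there were 2 of the 9 muscle genes (Myl9 and Acta1). None of the 9 was at 0 counts in any of the 6 mice, and against the 9 lower-dose mice the list median was 0.43. In bulk tissue more cells of a type and more RNA per cell cannot be told apart. Actins share near-identical sequence, so reads may be split between them.

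Other lists of wall tissue had positive medians too. The 7 adipocyte genes were all positive with a median log2 fold change of 0.83, and Plin1, which coats lipid droplets, had 1, 15 and 16 counts in the vehicle mice and 39, 41 and 34 at 0.3 μg/kg. The first vehicle mouse set much of this, with a summed level of 7.18 CPM beside 24.1 and 28.8 in the other vehicle mice and 28.8 or more in each mouse at 0.3 μg/kg, without it the median was 0.38, and against the 9 lower-dose mice it was 0.02. The 6 endothelial genes were all positive (median 0.37, Cdh5 and Tek not overlapping), and without the second treated mouse their median was 0.08. The 8 fibroblast genes were also all positive (median 0.27, Pdgfrb not overlapping), with a median of 0.04 against the 9 lower-dose mice. Of 7 neuron and glia genes 3 were tested, and Uchl1 had 5, 6 and 2 against 19, 16 and 13 counts. None of these genes passed the test. The part of these markers in the other differences was not tested. The first treated mouse, highest of the 3 for every muscle gene, was the lowest of the 3 for Dbp and for Nr1d1.

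**Figure D4:**
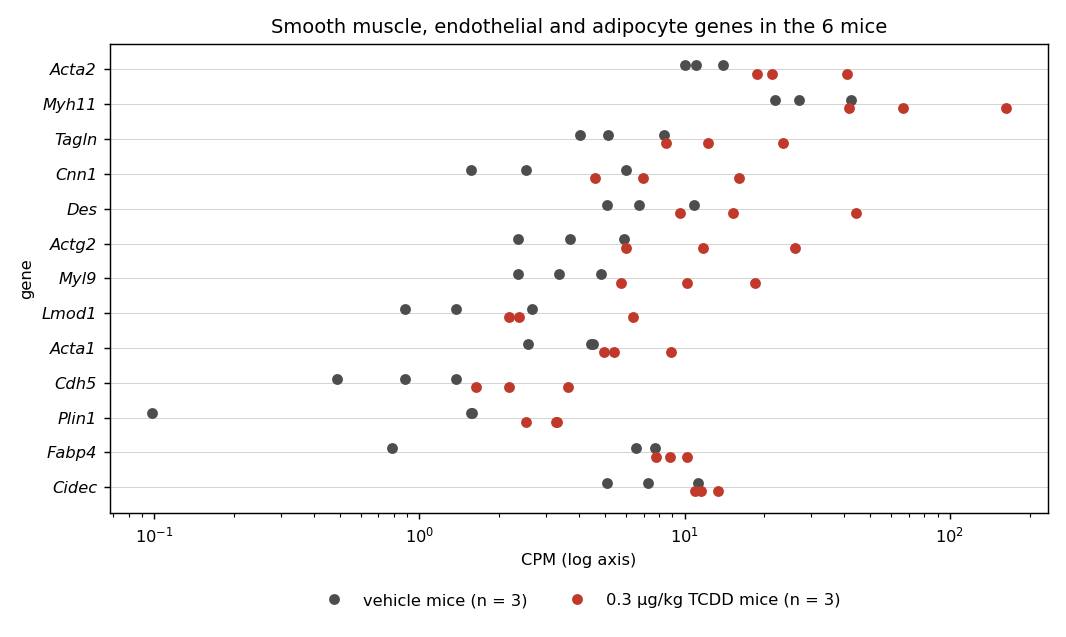
CPM (log axis) of 9 smooth muscle genes, the endothelial Cdh5 and the adipocyte genes Plin1, Fabp4 and Cidec in the 3 vehicle mice (grey) and the 3 mice at 0.3 μg/kg TCDD (red). The red points lie to the right, with 1 treated mouse farthest out for each muscle gene.

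Cholesterol genes had slightly lower values, and none passed the test. Of the 17 genes of synthesis and uptake 16 had negative log2 fold changes (median -0.17), and 5 did not overlap between groups, all lower, among them Fdft1, squalene synthase, at 75.9 ± 4.22 against 63.3 ± 6.07 CPM (SD, n = 3), Dhcr7, the last reductase of the pathway, at 93.3 ± 10.3 against 82.9 ± 4.70, and Insig1 at 125.9 ± 10.3 against 93.4 ± 8.17. The largest log2 fold change was that of Insig1, the retention factor of the SREBP pathway (-0.43, SE 0.20, adjusted p = 0.937 in edgeR). Against the 9 lower-dose mice the median was -0.13.

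Proliferation genes had mostly negative values as well. Of 20 cell cycle genes 16 were negative, beside 8364 of 16496 genes, with a median of -0.16. Only 2 of the 20 did not overlap between groups, beside 12.4% of all genes: Pcna, the sliding clamp, and Mcm4, a helicase subunit. Against the 9 lower-dose mice all 20 were negative, with a median of -0.37. The first treated mouse had the lowest summed level, 491.8 CPM beside 645.6 to 727.6 in vehicle and 654.7 and 677.6 in the other treated mice. The 13 crypt and Wnt genes were split, with 7 positive, 6 negative and a median of 0.01. Among them Axin2, the Wnt feedback gene, was at 60.3 ± 4.65 against 48.8 ± 5.79 CPM (log2 fold change -0.30, SE 0.14, adjusted p = 0.937 in edgeR) and Rnf43 at 63.6 ± 0.80 against 57.8 ± 1.96, both without overlap, while Ascl2, a stem cell factor, was above vehicle at 49 counts or fewer.

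Cobalamin absorption genes, which the study examined along the gut, showed no difference beyond the spread between mice at this dose. Cubn, the receptor for the intrinsic factor complex, had 184, 424 and 452 counts in the vehicle mice and 602, 603 and 246 at 0.3 μg/kg, so that the groups overlapped widely (log2 fold change 0.13, SE 0.48). Its membrane partner Amn was at -0.40 (SE 0.45), and Lmbrd1 (0.08), Abcc1 (0.02) and Tcn2 (0.09), which move cobalamin out of the lysosome and out of the cell, were within 1 SE of 0 with overlapping groups. In each group Cubn was lowest in the mouse with the highest Hox score. Of 12 tested genes for cobalamin trafficking and for the enzymes that need it, Mmachc alone did not overlap (6.48 ± 0.75 against 7.98 ± 0.85 CPM), and the list median was 0.04.

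**Figure D5:**
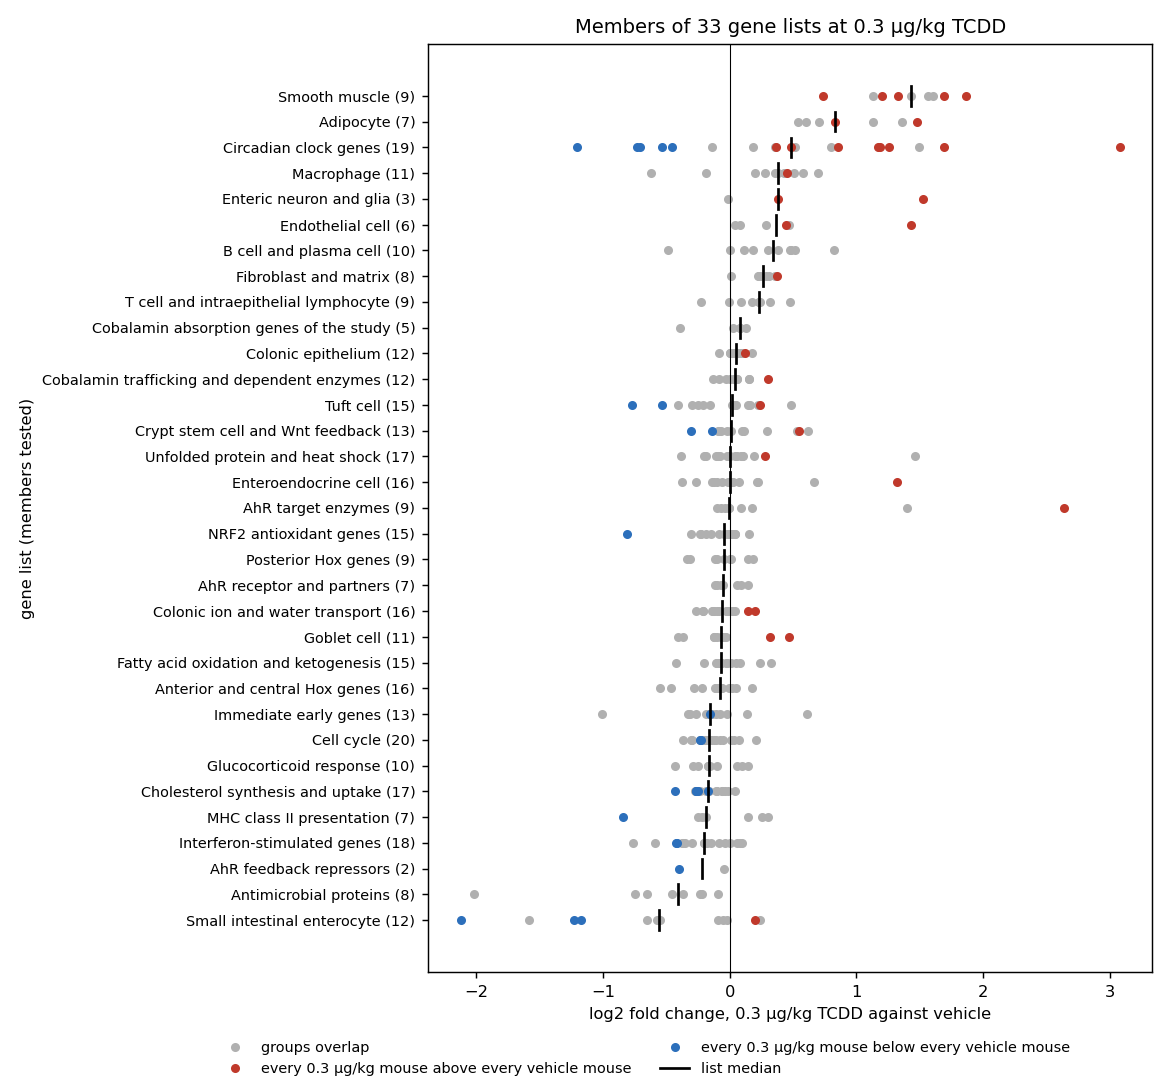
Log2 fold change at 0.3 μg/kg TCDD against vehicle for the tested members of 33 gene lists (points, in red or blue where the 3 mice of one group lie all above or below those of the other), with list medians as black bars; the number tested is in parentheses. Smooth muscle genes lie farthest to the right (median 1.43), clock genes spread to both sides, and the point far to the right among AhR target enzymes is Cyp1a1, whose fitted value depends on the prior count.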

How the data were processed

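Each library is RNA-seq of the colonic epithelium of 1 mouse. Per the labels and the study's methods, the authors checked the reads with FastQC 0.11.3, trimmed them with Trimmomatic 0.33, aligned them to GRCm38 with TopHat2 2.1.0, sorted them with SAMtools 1.2.0 and deposited raw gene counts made with HTSeq 0.6.1, while the annotation release and the strand setting are not given in the sources used here. Of the reads, 31.0 to 32.7% in the 6 libraries were assigned to no feature and 32.2 to 35.6% were not unique. Both stayed out of library sizes. The table of 46078 genes (45143 with a symbol in the gene table used here) was tested with edgeR 4.0.16 (R 4.3.3): TMM scaling, filterByExpr with a minimum count of 10, quasi-likelihood tests on all 27 libraries with 1 mean per dose, and the Benjamini-Hochberg method. Genes past an adjusted p of 0.05 with a change of 1.5 times or more were called. This replaced the study's own Bayesian ranking, which was not run here. DESeq2 1.42.0, limma voom 3.58.1, RLE scaling, no filter, the 6 libraries alone, the first index set alone, a Hox score as covariate and leaving out single mice were the alternatives.

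Log2 fold changes from edgeR carry the fit's SE and edgeR's default prior count, CPM values the SD over 3 mice. A prior count of 2 was used for log2 CPM, as in the Hox score. Named genes were all members of the AhR and clock lists, and the 10 genes per direction with the smallest p under 3 conditions. These were a fold of at least 1.5, groups that do not overlap and a mean of at least 1 CPM over the 6 libraries. The lists, the comparison and these rules were chosen with earlier results of these data known. Replicate numbers are in order of accession and pair nothing. Within the vehicle and the 0.3 μg/kg group, no pair of libraries agreed within sampling noise. The p-values measure the spread between these mice, and intervals and SEs of counts cover no earlier step. Coordinates are GRCm38 (GENCODE M21). A few list members are not reported here. The edgeR steps were tested on simulated data.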

Additional observations from a re-analysis of the deposited data

How the results depend on the processing

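No paired analysis was possible because the mice carry no labelled number shared across doses. For 0.3 μg/kg against vehicle, 0 genes were called with RLE scaling, DESeq2, limma voom, the first index set alone and the Hox covariate, and on leaving out each of the 6 mice in turn, while 1 was called with no filter on low counts, 3 with the 6 libraries alone and 4 without the third mouse at 0.01 μg/kg. Leaving out mice, that one included, the count ran from 0 to 5 against the 3 lower doses pooled and from 0 to 1 against 0.1 μg/kg. From 0.3 to 1 μg/kg it ran from 0 to 9, with 7 by DESeq2 (10 without the fold threshold), 7 with no filter, 0 by limma voom and 9 (12 without the fold threshold) without the third mouse at 0.01 μg/kg. The cause of the other changes was not tested.

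Over the alternatives of scaling, libraries and Hox covariate, 603 values of single genes kept direction and call, 7 values of Nr1d1, Nr1d2, Dbp and Tef newly passed, and 32 changed sign, all on leaving out 1 mouse. Beside these, Nr1d1 passed with no filter and Arnt2 was -0.014 with limma voom. Over those fits the log2 fold changes ran as follows: Arnt2 from -0.28 to 0.47, Hsp90aa1 from -0.18 to 0.012, Hsp90ab1 from -0.11 to 0.008, Ahrr from -0.32 to 0.125, Cyp1b1 from -0.17 to 1.92, Cyp2s1 from -0.18 to 0.054, Nqo1 from -0.25 to 0.04, Ugt1a6a from -0.026 to 0.41, Ugt1a6b from -0.057 to 0.072, Gsta1 from -0.11 to 0.25, Ugdh from -0.15 to 0.20, Xdh from -0.14 to 0.046, Cubn from -0.18 to 0.48, Amn from -0.97 to 0.074, Abcc1 from -0.04 to 0.13 and Tcn2 from -0.011 to 0.20. Of the list medians 349 moved by less than their spread and 14 by more, each taken over the members tested in that fit. Among the 14 was the clock list, at 0.36 with the 6 libraries alone, where Hlf, Ciart and Bhlhe41 were not tested. At under 20 counts, as for Cyp1a1, counting error alone is wide, and with 3 mice a group an exact permutation test cannot go below p = 0.1.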

Other observations

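In the lists not yet described no gene passed the test (edgeR, 0.3 μg/kg against vehicle), and the values are given as descriptions. Among 11 goblet cell genes, Spdef and Atoh1, transcription factors of the secretory lineage, were higher in every treated mouse than in any vehicle mouse, at 76.1, 106.4 and 120.4 CPM in vehicle and 121.3, 165.0 and 132.9 at 0.3 μg/kg for Spdef, and at 79.1 ± 9.69 against 98.8 ± 7.58 CPM for Atoh1 (SD, n = 3), while the other 9 had negative log2 fold changes and overlapped. Among 15 tuft cell genes the list median was 0.02. Gnat3, the taste G protein subunit, had 40, 23 and 35 counts against 16, 25 and 32, Il17rb, the receptor for IL-25, had 37, 34 and 39 against 32, 35 and 29, and Plcb2 was above vehicle in every mouse, so that the 3 genes without overlap pointed both ways. Of 16 enteroendocrine genes Scg2 alone did not overlap (8, 7 and 3 against 13, 23 and 22 counts).

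Of 12 small intestinal enterocyte genes 10 had negative log2 fold changes. Lct, lactase, had 10, 11 and 4 counts in the vehicle mice and 1, 2 and 4 at 0.3 μg/kg, and the apolipoproteins Apoa1 and Apoa4 also lay below without overlap. The list median was -0.56 in the fit of all libraries, and -0.955 against the 9 lower-dose mice, with 1 of 12 genes positive. In the fit of the 6 mice alone it was -0.10, over the members that passed the filter of that fit. Slc5a1, the glucose transporter SGLT1, pointed the other way, from 158.2 ± 12.6 CPM in vehicle to 182.2 ± 9.31 at 0.3 μg/kg. Of 16 genes of colonic ion and water transport 11 were negative (median -0.06), while against the 9 lower-dose mice 11 were positive (median 0.06). The groups did not overlap in 2 of them, both higher, among them Atp1b1, the β subunit of the sodium pump, at 1120 ± 59.3 CPM in vehicle and 1240 ± 86.6 at 0.3 μg/kg. Cdh17 was the only one of the 12 colonic epithelium genes without overlap.

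The antimicrobial, interferon and MHC class II medians changed sign with the reference, as did the small medians of the goblet cell (-0.07 and 0.08) and immediate early lists (-0.15 and 0.01). All 8 tested antimicrobial genes were negative (median -0.41), most widely Lyz1 with 20, 3 and 82 against 16, 6 and 10 counts, where 1 vehicle mouse stood apart, and the median was 0.39 against the 9 lower-dose mice. Of 18 interferon-stimulated genes 15 were negative (median -0.20, Zbp1 and Bst2 without overlap), and against the lower-dose mice the median was 0.21. H2-DMa, which loads peptide on MHC class II, had 44, 42 and 36 against 30, 26 and 30 counts (log2 fold change -0.84, SE 0.27), and -0.01 against the lower-dose mice. The MHC class II list median of -0.19 was 0.23 against the lower-dose mice, and it was 0.20 without the second vehicle mouse. T cell (0.23), B cell (0.34) and macrophage (0.38) lists had positive medians, also against the lower-dose mice (0.64, 0.43 and 0.34), and of their 30 tested genes Cd68 alone did not overlap. Among 13 immediate early genes Egr1, an early growth factor response gene, was at 39.2 ± 17.0 against 19.5 ± 5.09 CPM, overlapping in part, and Zfp36 at 97.5 ± 4.79 against 87.7 ± 2.32 CPM without overlap.

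Among 15 NRF2 genes Hmox1, heme oxygenase, had 89, 65 and 102 against 71, 70 and 41 counts, and its CPM did not overlap. The medians were -0.16 for 10 glucocorticoid response genes, -0.07 for 15 fatty acid oxidation genes and 0.00 for 17 unfolded protein and heat shock genes, of which Hsph1 alone did not overlap, at 15.5 ± 0.90 CPM in vehicle and the higher 18.9 ± 1.35 at 0.3 μg/kg. The 9 posterior Hox genes (median -0.05) and 16 anterior and central Hox genes (median -0.08) overlapped throughout. Hoxb13, the most posterior gene of its cluster, was at 109.5, 41.5 and 35.3 CPM in the vehicle mice and at 26.9, 46.0 and 133.2 CPM at 0.3 μg/kg.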
